A study of Mus musculus with 24 samples.

Results

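The 6 genes described here encode carriers that move fuels, vitamins and organic anions across the endothelium of brain vessels: Slc2a1 (GLUT1, glucose), Slc16a1 (MCT1, lactate, pyruvate and ketone bodies), Slc16a4 (a monocarboxylate carrier family member), Slc5a6 (SMVT, biotin, pantothenate and lipoate), Slc19a3 (thiamine) and Slc22a8 (OAT3, organic anions). They were chosen by gene symbol, and each of the 6 symbols matched a single entry among the 53465 genes listed. All 6 passed the filter on low values, which left 15493 genes. RNA-seq was performed on CD31-sorted brain endothelial cells of Bmal1fl/fl control mice and of Bmal1fl/fl; Tie2cre mice, here called mutants, both of the C57BL/6J strain. Both genotypes carry the floxed allele of Bmal1 (Arntl), the core activator of the circadian clock, and they differ in the Tie2cre transgene, whose promoter is also active in other cells that express Tie2, such as some blood cells. Mice were entrained to light and dark, with lights on at Zeitgeber time (ZT) 0, and 2 mice of each genotype were taken at each of 6 time points from ZT2 to ZT22, which gave 12 libraries per genotype, each from a separate mouse. Ages were not given in the sources used here.

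Brain capillary endothelium is sealed by tight junctions, so polar nutrients enter the brain through carriers in the luminal and abluminal membranes. GLUT1 is the main route of glucose and is used as a defining protein of barrier endothelium, MCT1 exchanges lactate and ketone bodies together with protons, and vitamins that serve as enzyme cofactors use carriers of their own. OAT3 faces the abluminal side and is known for taking organic anions, among them drugs and neurotransmitter metabolites, out of the brain.

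Library totals lay between 6136404 and 6648311 reads in the 24 libraries, after a normalization by the authors that brings libraries to similar totals. The 8 libraries of ZT6 and ZT18 stood apart from the other 16 in both genotypes. Mitochondrial genes took 2.68% to 3.90% of their reads, and 5.78% to 17.4% in the others. They had more reads on 10 endothelial markers (median 15571 against 11561 CPM, counts scaled to the library total) and fewer on 6 microglial markers (177 against 2629 CPM) and 6 astrocyte markers (815 against 2033 CPM), and their library numbers are consecutive. Time of day and this series of libraries cannot be told apart at ZT6 and ZT18, and several member tests over the day are given with and without them. At ZT2 and ZT10 the controls carried a different i5 index (a sequence tag of the library) from the mutants. Genotype and index cannot be told apart there, and at the other time points both genotypes shared an index. Both mutants of ZT14 and the first control of ZT2 had library numbers lower than those of all other libraries. At ZT14, genotype and this difference in library numbers cannot be told apart. All 10 endothelial markers had reads in every library. Arntl was counted over the whole gene, so reads outside the deleted exon remain and the count does not measure the deletion. Controls had between 1 and 468 Arntl reads, lowest at ZT10 and ZT14 and highest at ZT22 and ZT2, while mutants had between 81 and 354, and the genotype difference in Arntl varied with time (edgeR interaction test, adjusted p = 0.00813).

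All 6 genes had a promoter entry in RefSeq on GRCm38.p6, a window of 250 bases before to 50 bases after the start site, and Slc5a6 had a pair of entries. The canonical E-box bound by the BMAL1 and CLOCK pair, CACGTG, was found in the Slc16a1 window, with its first base at -200 from the start, and in no window of the other 5 genes; 7.15% of 32851 mouse promoter windows hold it. The hypoxia response core ACGTG, searched on both strands and contained in the E-box, was found in the windows of Slc16a1, Slc2a1 and Slc19a3, against 19.6% of all windows. The E-box variant CACGTT (4.68% of windows) and the D-box TTATGTAA or TTACGTAA (1.06% of windows) were found in none of the 7 windows. The windows of Slc16a1, Slc2a1 and Slc5a6 are shown because these genes had the clearest patterns in time described further on, with matches in capitals (the Slc5a6 window, from the start site farther upstream, holds none): Slc16a1 at chr3:104638414-104638713 (plus strand), Slc2a1 at chr4:119108495-119108794 (plus strand) and Slc5a6 at chr5:31048513-31048812 (minus strand).
Slc16a1 promoter: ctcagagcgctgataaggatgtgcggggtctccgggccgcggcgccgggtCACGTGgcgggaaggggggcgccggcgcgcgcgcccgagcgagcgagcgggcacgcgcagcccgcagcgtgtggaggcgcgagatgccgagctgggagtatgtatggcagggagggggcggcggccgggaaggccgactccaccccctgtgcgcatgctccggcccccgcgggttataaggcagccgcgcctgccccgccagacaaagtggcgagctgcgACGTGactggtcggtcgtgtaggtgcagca
Slc2a1 promoter: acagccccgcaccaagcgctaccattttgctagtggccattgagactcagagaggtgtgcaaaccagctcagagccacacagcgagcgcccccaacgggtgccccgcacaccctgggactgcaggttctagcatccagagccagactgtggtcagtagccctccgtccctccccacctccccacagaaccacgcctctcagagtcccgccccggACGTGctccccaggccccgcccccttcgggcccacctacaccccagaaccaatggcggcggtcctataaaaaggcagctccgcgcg
Slc5a6 promoter: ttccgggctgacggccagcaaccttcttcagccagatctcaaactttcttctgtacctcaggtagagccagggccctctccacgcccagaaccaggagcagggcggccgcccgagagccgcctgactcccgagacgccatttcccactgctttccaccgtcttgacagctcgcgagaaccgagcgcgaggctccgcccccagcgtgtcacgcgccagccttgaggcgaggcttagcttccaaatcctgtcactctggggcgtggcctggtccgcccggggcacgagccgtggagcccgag
A match describes letters in a window and not a bound site.

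The levels of the 6 carriers spanned a wide range, with Slc2a1 the highest and Slc16a4 and Slc5a6 the lowest in every mouse. Per kilobase of exon, Slc2a1 had 3636 ± 939 reads in controls and 3660 ± 1258 in mutants (SD, n = 12 each), and it ranked 33 among the genes kept by total reads, with 0.203% of all reads. Slc16a1 followed with 597 ± 247 reads per kb in controls and 495 ± 117 in mutants. Slc2a1 exceeded Slc16a1 per kb by 6.80-fold on average and did so in 24 of 24 libraries. The organic anion carrier Slc22a8 (413 ± 99.5 in controls, 359 ± 48.6 in mutants) and the thiamine carrier Slc19a3 (363 ± 66.6 and 430 ± 85.8) came next. Their order was not fixed, since Slc22a8 was the higher in 11 of 24 libraries, and Slc16a1 exceeded Slc22a8 in 19 of 24, by 1.36-fold on average. Slc16a4 had 144 ± 38.4 reads per kb in controls and 141 ± 26.1 in mutants, below Slc19a3 in 24 of 24 libraries by 2.80-fold. Slc5a6 was the lowest, with 32.6 ± 13.8 and 34.6 ± 9.79 reads per kb, and lay below Slc16a4 in 24 of 24 libraries by 4.39-fold. Counting error was 0.884% of the mean for Slc2a1, whose mice of the same genotype and time point differed with a pooled coefficient of variation of 13.8%, and for Slc5a6, the least sampled, these values were 8.64% and 25.6%.

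**Figure D1:**
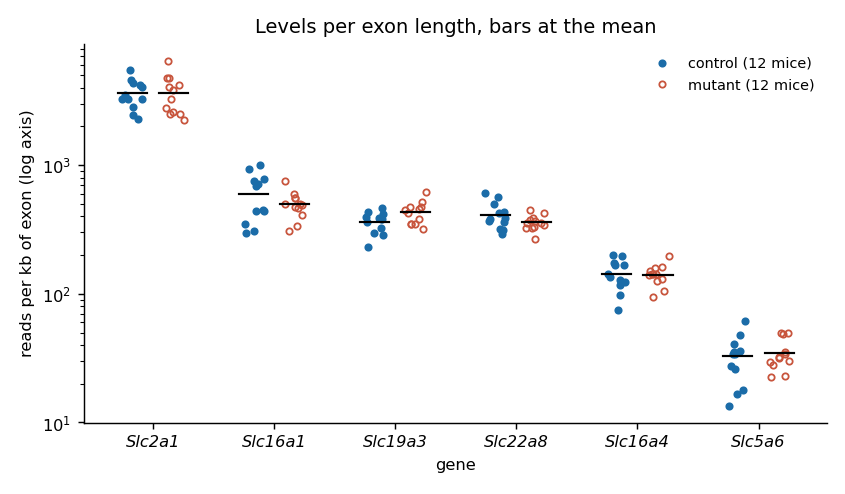
Reads per kilobase of exon (log axis) of the 6 carriers in each of 24 mice, with bars at the mean of 12 controls (filled) and 12 mutants (open). The points of Slc2a1 lie above those of the other 5 genes and the points of Slc5a6 below them, while Slc19a3 and Slc22a8 overlap.

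Averaged over the day, no carrier differed between genotypes past the threshold over all genes. The edgeR model with time point as a factor called 0 of 6 members at an adjusted p under 0.05, beside 0.271% of all genes tested (42 of 15493). At an unadjusted p under 0.05, 2 of 6 members were found, Slc19a3 higher and Slc22a8 lower in mutants, beside 6.95% of all genes. The median difference of the members, mutant minus control, was -0.020 on the log2 scale, and that of all genes tested was 0.0033.

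Slc2a1 lies on chromosome 4 from 119108711 to 119137983 (GRCm38, plus strand; coordinates of all 6 genes are from the same build) and encodes the glucose carrier GLUT1. Taken in pairs of mice in order from ZT2 to ZT22, controls had 9952 with 11448, 12342 with 14317, 11515 with 16048, 14803 with 19255, 15302 with 11393, and 7996 with 8619 reads. The mutant pairs, in the same order, had 8748 with 8745, 14097 with 13455, 9745 with 11424, 16792 with 22549, 14633 with 16794, and 9071 with 7938 reads. The highest mean was at ZT14 and the lowest at ZT22 in both genotypes, a 2.05-fold range in controls and a 2.31-fold range in mutants. A 24-h cosine on log2(reads + 1) had an amplitude of 0.40 ± 0.11 (SE, 12 controls) with a peak at ZT11.9, and of 0.47 ± 0.15 (12 mutants) with a peak at ZT13.7. Over both genotypes, with genotype as a covariate, the rhythm of Slc2a1 passed the threshold over all genes (edgeR, p = 6.57e-05, adjusted p = 0.0192, n = 24). It was the only 1 of 6 members to do so, beside 0.503% of all genes (78 of 15493), and a permutation test of the cosine with 100000 reassignments of time points gave p = 0.00093. The adjusted p was 0.00638 without the libraries of ZT6 and ZT18 and 3.06e-04 with the endothelial marker sum as a covariate. It was 0.0564 on the deposited totals without TMM scaling, 0.0923 without the second control of ZT14, 0.0597 and 0.0712 without the first or second mutant of ZT2, and 0.0989 without the second mutant of ZT14.

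Within a genotype, the rhythm method of the study (meta2d, a joint p of JTK_CYCLE and the Lomb-Scargle periodogram, called at a q under 0.6) called 0 of 6 members in controls, beside 0.31% of all genes, and 0 of 6 in mutants, beside 0.0387%. Slc2a1 had an unadjusted meta2d p of 0.0445 in controls and 0.0863 in mutants. The rhythm of Slc2a1 was not shown to differ between genotypes (edgeR, p = 0.637, n = 12 per genotype), and its level differed by -0.03 ± 0.08 on the log2 scale (SE, p = 0.756). Antisense transcript Gm12868 overlaps 105 bases of Slc2a1 exons and had 0 reads in 24 of 24 libraries.

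**Figure D2:**
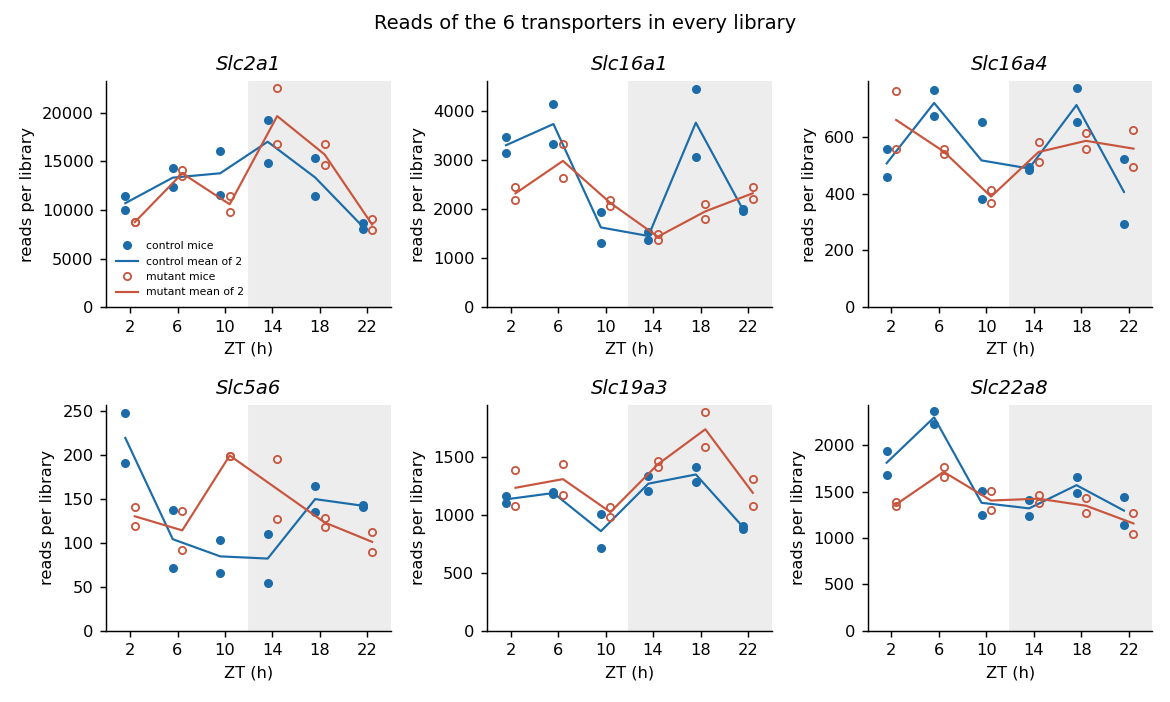
Reads per library (vertical axes start at 0) against ZT in hours for the 6 carriers, with filled points for control mice, open points for mutant mice, lines through the mean of 2 mice and grey for lights off. Slc2a1 is highest at ZT14 in both genotypes, Slc16a1 separates at ZT18, and Slc5a6 is high at ZT2 in controls and at ZT10 in mutants.

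Among the monocarboxylate carriers, Slc16a1 (chromosome 3, 104638668 to 104658462, plus strand) had genotype differences of both signs over the day, none of which passed the threshold over all genes in edgeR with the filter on low values. MCT1, its product, moves lactate and ketone bodies with protons. Pairs of controls in order from ZT2 to ZT22 had 3466 with 3143, 3338 with 4137, 1307 with 1946, 1363 with 1541, 3073 with 4458, and 1956 with 2000 reads. Pairs of mutants in that order had 2190 with 2454, 2638 with 3332, 2074 with 2177, 1501 with 1374, 1804 with 2105, and 2444 with 2204 reads. The control means alternated between high values at ZT2, ZT6 and ZT18 and low values at ZT10, ZT14 and ZT22, whereas the mutant means were highest at ZT6 and lowest at ZT14. At ZT18 both mutants lay below both controls, a difference of -0.92 ± 0.19 on the log2 scale (SE, adjusted p = 0.547). Groups of 2 against 2 do not overlap in 34% of all genes and time points. For Slc16a1 both mutants lay above both controls at 2 of 6 time points and below them at 3. The differences of Slc16a1 were -0.47 ± 0.19 at ZT2, -0.29 ± 0.19 at ZT6, 0.39 ± 0.19 at ZT10, -0.12 ± 0.19 at ZT14 and 0.22 ± 0.19 at ZT22, with adjusted p-values between 0.679 and 0.999. At single time points edgeR called 0 of 6 members, beside 0% of all genes at ZT2, ZT18 and ZT22, 0.0129% at ZT6, 0.0645% at ZT10 and 0.232% at ZT14.

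The interaction of genotype and time point, a test added after these values were seen, gave p = 0.00061 for Slc16a1 in edgeR (adjusted p = 0.497, n = 24), where 5.22% of all genes had an unadjusted p under 0.05 and 0.0129% passed the adjusted threshold. DESeq2 called Slc16a1 in this test (adjusted p = 0.00773), beside 0.53% of all genes, and at ZT18 (adjusted p = 0.0123), where 0.00645% of all genes (1 of 15493) passed. Without a filter on low values edgeR called it in both as well (adjusted p = 0.00363 and 0.00503). That setting called 183 genes in the interaction, against 2 with the filter, and 334 over all single time points, against 48. The ZT18 libraries belong to the series that stood apart, and without those of ZT6 and ZT18 the interaction had p = 0.0224 for Slc16a1 (n = 16, adjusted p = 0.912). Over the day the level of Slc16a1 differed by -0.20 ± 0.11 (p = 0.0750, n = 12 per genotype), and without the ZT6 and ZT18 libraries by 0.0019 (adjusted p = 0.998). Over both genotypes a 24-h rhythm with an amplitude of 0.40 ± 0.12 and a peak at ZT2.24 had p = 0.0224 (n = 24, adjusted p = 0.759), and without the ZT6 and ZT18 libraries the adjusted p was 0.0137, where 0.678% of all genes passed. In mutants Slc16a1 had the smallest meta2d p of the members (0.00797, q = 1), with an amplitude of 0.38 ± 0.09 and a peak at ZT3.43, and in controls that p was 0.821. Without the ZT6 and ZT18 libraries the order turned, and an edgeR cosine fit within a genotype gave an adjusted p of 0.226 in controls and 0.647 in mutants. The difference in 24-h rhythm had p = 0.466 (n = 12 per genotype), so a mutant rhythm that controls lack was not shown.

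Slc16a4 (chromosome 3, 107291230 to 107312115, plus strand), a relative of MCT1 whose substrates are less settled, varied without a clear 24-h pattern or genotype difference. Its control means were highest at ZT6 and ZT18 (719 and 711.5 reads), in the libraries that stood apart, and its mutant mean at ZT2 (659 reads). Its reads ran from 291 to 772 in controls with a median of 537.5, and from 367 to 760 in mutants with a median of 557. The ranges over the day overlapped almost entirely, and the level differed by -0.01 ± 0.12 on the log2 scale (p = 0.901, n = 12 per genotype). Both mutants lay above both controls at 2 of 6 time points and below them at 2. Over all genes and time points these shares were 17.3% and 16.7%. At single time points the differences ran from -0.40 ± 0.26 at ZT10 to 0.45 ± 0.26 at ZT22. Its meta2d p was 1 in controls and 0.410 in mutants, and the shared 24-h rhythm had p = 0.879 (n = 24).

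Among the vitamin carriers, Slc5a6 (chromosome 5, 31036036 to 31048924, minus strand) had fitted peaks at nearly opposite times of day in the genotypes, a difference that did not pass the threshold over all genes. The gene encodes SMVT, the sodium-dependent carrier of biotin, pantothenate and lipoate. From ZT2 to ZT22 the pairs of controls had 191 with 247, 71 with 137, 66 with 103, 54 with 110, 135 with 164, and 141 with 143 reads. The pairs of mutants had 119 with 141, 92 with 136, 199 with 199, 195 with 127, 118 with 128, and 112 with 90 reads. Both mutants lay above both controls at 2 of 6 time points and below them at 3. Such groups do not overlap in 34% of all genes and time points. The controls of ZT2 lay above every other control, and the mutants of ZT10 above every other mutant. Both mice of a time point lay above all others of their genotype in 6 of the 12 pairs of member and genotype, and in 12.4% of such pairs over all genes. Besides Slc5a6 these were Slc16a1 in mutants and Slc22a8 in both genotypes at ZT6, and Slc19a3 in mutants at ZT18. Those of ZT6 and ZT18 lie in the libraries that stood apart. The fitted cosine had an amplitude of 0.66 ± 0.19 with a peak at ZT23.5 in controls and of 0.37 ± 0.13 with a peak at ZT11.3 in mutants. The difference in rhythm had p = 0.000809 in edgeR (n = 12 per genotype, adjusted p = 1.00). It was the only 1 of 6 members under an unadjusted p of 0.05, beside 4.26% of all genes, and 0 of 15493 genes passed the adjusted threshold in edgeR (660 had an unadjusted p under 0.05), while 1 did in DESeq2.

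At ZT10 the value of Slc5a6 in mutants lay above that in controls by 1.24 ± 0.40 on the log2 scale (SE, adjusted p = 0.707) and at ZT14 by 0.87 ± 0.40 (adjusted p = 0.543). The genotypes carried different i5 indices at ZT2 and ZT10, and the same index at ZT14 and ZT22. At ZT14 the library numbers of the mutants lay apart from those of the controls. The values at ZT2 (-0.72 ± 0.39) and ZT22 (-0.50 ± 0.40) had the other sign, and over the day the level differed by 0.12 ± 0.20 (p = 0.538, n = 12 per genotype). The interaction with time point had p = 0.00974 (n = 24) and, without the ZT6 and ZT18 libraries, 0.00403 (n = 16), and the meta2d p was 0.0301 in controls and 0.126 in mutants (both q = 1). The p of the rhythm difference was 0.00145 without the ZT6 and ZT18 libraries and lay between 1.96e-04 and 0.00464 over the 35 alternatives run. Slc5a6 shares 396 bases of exon with Atraid, a gene on the opposite strand, and whether the counting used strand is not given in the sources used here. Atraid had 36 and 73 reads in controls and 132 and 115 in mutants at ZT10, the same direction as Slc5a6, and across the 24 libraries the genes had r = 0.594 (Pearson, libraries share depth and time points). The rhythm difference of Atraid itself had p = 0.0686 (n = 12 per genotype). The part of shared reads in the Slc5a6 values was not tested.

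**Figure D3:**
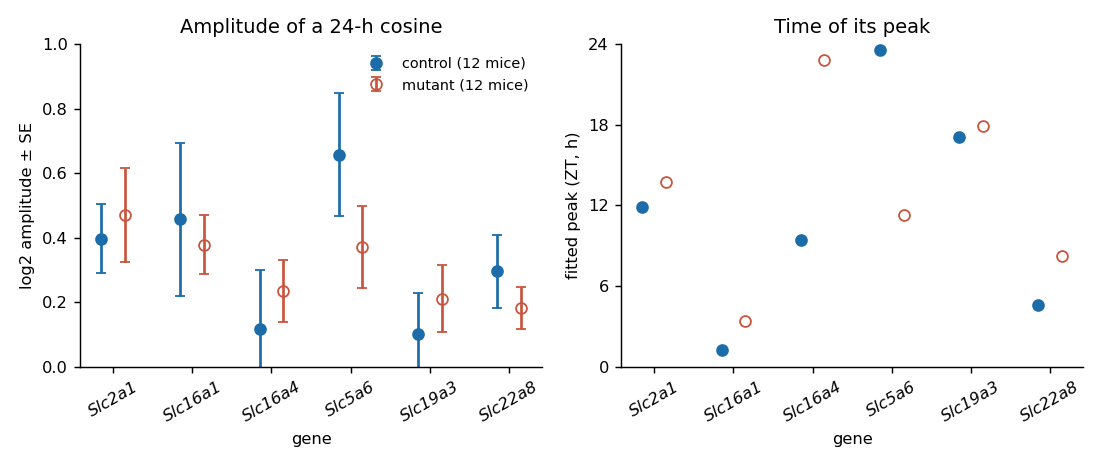
Left, amplitude of a 24-h cosine on log2(reads + 1) with its SE (bars below 0 are cut off) in 12 controls and 12 mutants. Right, the ZT of the fitted peak, which for Slc5a6 is ZT23.5 in controls and ZT11.3 in mutants and for Slc2a1 ZT11.9 and ZT13.7; peaks of small amplitudes, such as those of Slc16a4 in controls, are poorly fixed.

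Slc19a3 (chromosome 1, 83012523 to 83038448, minus strand), which carries thiamine, had the smallest p-value of the members in the comparison of levels. Controls ranged from 711 to 1413 reads with a median of 1168, and mutants from 978 to 1887 with a median of 1344.5. The groups overlapped, and the mutant mean was the higher at 6 of 6 time points, with both mutants above both controls at 3 of them, as in 17.3% of all genes and time points. The level in mutants lay above that in controls by 0.24 ± 0.07 on the log2 scale (p = 0.00232, adjusted p = 0.269, n = 12 per genotype), and an exact permutation of genotypes within time points gave p = 0.00141 over 46656 arrangements (two-sided). The difference kept its sign and an unadjusted p under 0.05 in 36 of 36 alternatives, between 0.19 and 0.27, and its adjusted p passed the threshold in 0 of them. The largest values at single time points were 0.40 ± 0.18 at ZT22 (891 against 1188 reads, adjusted p = 0.999) and 0.39 ± 0.18 at ZT18 (1345.5 against 1734.5 reads, adjusted p = 0.964). The endothelial marker sum had a median of 12496 CPM in mutants and 12141 CPM in controls, and with it as a covariate the difference of Slc19a3 was 0.21 (adjusted p = 0.549). Its meta2d p was 1 in controls and 0.849 in mutants. The shared 24-h rhythm, with an amplitude of 0.16 ± 0.08 and a peak at ZT17.6, had p = 0.0752 (edgeR, n = 24, adjusted p = 0.9999). That unadjusted p lay under 0.05 in 6 of 36 alternatives, and the adjusted p passed the threshold in 0 of them.

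Slc22a8 (chromosome 19, 8591254 to 8611835, plus strand), the organic anion carrier, had lower values in mutants at ZT2, ZT6 and ZT18, in no case past the threshold over all genes. Controls ranged from 1144 to 2371 reads with a median of 1495, and mutants from 1040 to 1766 with a median of 1382. Controls had 1681 and 1944 reads at ZT2 against 1343 and 1384 in mutants, and 2232 and 2371 at ZT6 against 1662 and 1766. At ZT18 they had 1658 and 1482 against 1430 and 1267. Both mutants lay below both controls at these 3 of 6 time points, as in 16.7% of all genes and time points. The differences were -0.38 ± 0.17 at ZT2 (adjusted p = 0.725), -0.39 ± 0.17 at ZT6 (adjusted p = 0.877), 0.03 ± 0.17 at ZT10, 0.01 ± 0.17 at ZT14, -0.19 ± 0.17 at ZT18 and -0.17 ± 0.17 at ZT22. Over the day Slc22a8 differed by -0.18 ± 0.07 (p = 0.0167, adjusted p = 0.554; exact permutation p = 0.0219). The value was -0.13 without the ZT6 and ZT18 libraries (adjusted p = 0.944) and -0.12 (adjusted p = 0.854) with markers of 6 other cell types as covariates. ZT6 held the highest mean in both genotypes, and the shared 24-h rhythm, with an amplitude of 0.21 ± 0.07 and a peak at ZT5.96, had p = 0.0140 (n = 24, adjusted p = 0.635). That p was 0.358 without the ZT6 and ZT18 libraries (16 mice) and 0.0521 without the second control of ZT6 alone.

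**Figure D4:**
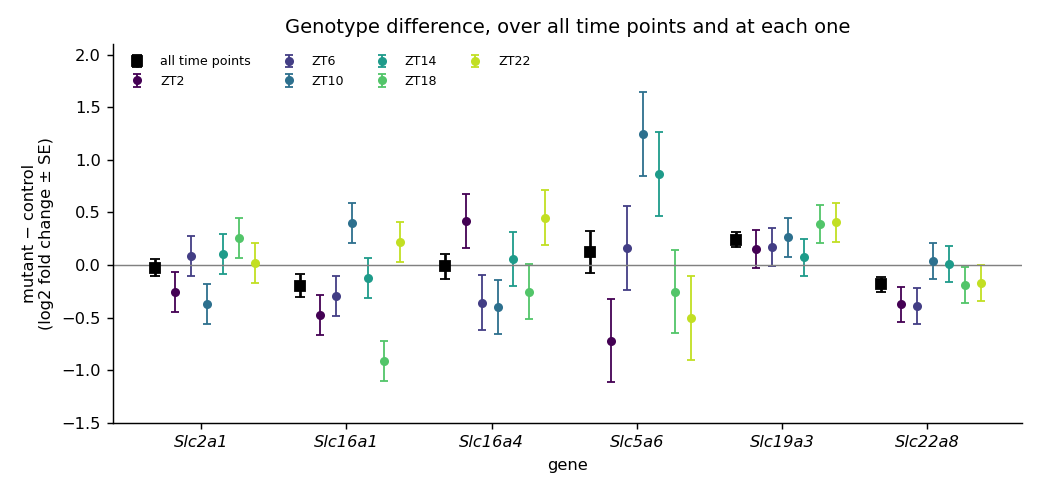
Log2 fold change of mutants against controls with its SE from edgeR, over all time points (black squares) and at each of 6 time points (coloured circles). Slc19a3 lies above 0 at 6 of 6 time points, Slc16a1 reaches -0.92 at ZT18 and Slc5a6 1.24 at ZT10.

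The libraries of ZT6 and ZT18 held more reads of most of these carriers than the other 16. In edgeR 5 of 6 members were called higher, beside 19.4% of all genes called in either direction and 7.75% called higher. The differences were 0.60 ± 0.08 on the log2 scale for Slc16a1 (adjusted p = 3.01e-06), 0.35 ± 0.11 for Slc16a4 (adjusted p = 0.0253), 0.32 ± 0.08 for Slc19a3 (adjusted p = 0.00395), 0.30 ± 0.07 for Slc22a8 (adjusted p = 0.00351) and 0.28 ± 0.08 for Slc2a1 (adjusted p = 0.0138). Slc5a6 differed by -0.11 ± 0.17 (adjusted p = 0.748). The median of the members was 0.31 and that of all genes tested 0.0090. Slc16a1 ran from 1804 to 4458 reads in the 8 libraries and from 1307 to 3466 in the 16, and none of the 6 members separated the libraries without overlap, which 2.58% of all genes did.

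The markers of endothelium moved in the same direction, with a median of 0.43 over 10 genes, of which 9 were called higher and 0 lower. Markers of pericytes and smooth muscle had a median of 0.52 (8 of 9 higher), and those of microglia -3.92 (6 of 6 lower). With the endothelial marker sum as a covariate, an alternative added after seeing the data, 0 of 6 members were called, beside 0.981% of all genes. The differences were then 0.43 for Slc16a4, 0.27 for Slc16a1, 0.27 for Slc22a8, 0.20 for Slc2a1, 0.018 for Slc19a3 and -0.80 for Slc5a6. That sum ran from 14982 to 16528 CPM in the ZT6 and ZT18 libraries and from 9134 to 13787 CPM in the others. Because these ranges do not overlap, the fit can hardly separate the marker sum from the series. With markers of 6 other cell types as covariates 0 of 6 were called, beside 0% of all genes, and the differences were 0.84 for Slc16a1 and 0.74 for Slc16a4, above those without covariates, 0.012 for Slc2a1, -0.17 for Slc22a8, -0.26 for Slc19a3 and -0.72 for Slc5a6. Among these covariates, microglial markers ran from 157 to 251 CPM in the ZT6 and ZT18 libraries and from 1335 to 3662 CPM in the others. This fit, too, can hardly separate the covariates from the series. Within controls 3 of 6 were called (Slc16a1 0.90, Slc16a4 0.57, Slc22a8 0.39), beside 9.75% of all genes, and within mutants 2 of 6 (Slc2a1 0.43, Slc19a3 0.34), beside 10.7%. When single mice were left out, Slc2a1 was not called without the second control of ZT6 (adjusted p = 0.0526) or the first of ZT18 (adjusted p = 0.0700), and Slc16a4 not without the second control of ZT6 (0.0705) or of ZT18 (0.0684) or the first mutant of ZT18 (0.0613). In such bulk samples, a larger share of endothelial cells and more carrier RNA per cell cannot be told apart.

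**Figure D5:**
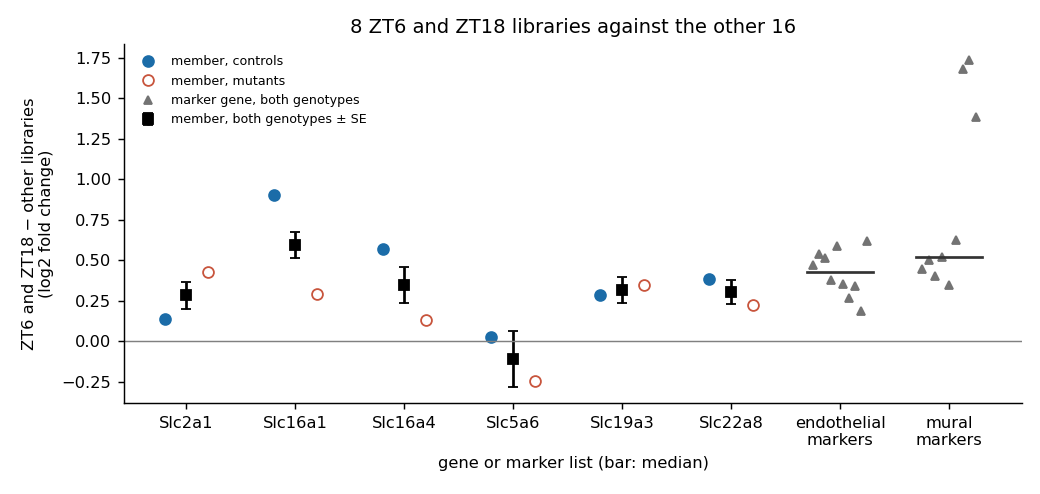
Log2 fold change between the 8 ZT6 and ZT18 libraries and the other 16, for the 6 carriers over both genotypes (squares, with SE), within controls (filled circles) and within mutants (open circles), and for single endothelial and mural (pericyte and smooth muscle) marker genes (triangles, bar at the median). Of the carriers, 5 lie at 0.28 to 0.60 over both genotypes, near the endothelial median of 0.43, and Slc5a6 lies at -0.11.

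Further genes of the same pathways were examined as 7 lists, of which no gene differed in level between genotypes past the threshold over all genes in the edgeR test of level. At an unadjusted p under 0.05, 3.78% of all genes were higher and 3.18% lower in mutants. Among 17 measured vitamin carriers, 4 had such a p with a higher and 2 with a lower level. The retinol carrier receptor Stra6 had the smallest p of all lists, with means of 295 reads in controls and 178 in mutants (-0.69 ± 0.17 on the log2 scale, adjusted p = 0.0898). Stra6 passed the adjusted threshold in 6 of 35 alternatives, namely without a filter (adjusted p = 6.50e-04), with DESeq2 (0.0181) and when any 1 of 4 mice was left out (0.0220 to 0.0416). Without a filter, 141 of all genes passed in the test of level, against 42 with it. Among 14 measured monocarboxylate carriers and ancillary proteins, 2 were higher and 0 lower: Bsg, the chaperone basigin that MCT1 needs to reach the membrane, by 0.27 ± 0.08 (adjusted p = 0.275, and 0.00387 without a filter), and Slc16a9 by 0.41 ± 0.15 (adjusted p = 0.464). Among 10 hexose carriers 0 were higher and 1 lower, Slc50a1 (-0.22, adjusted p = 0.718), and the next smallest p was that of Slc2a9 (0.72, adjusted p = 0.918). Of 17 enzymes of glycolysis and lactate 0 had an unadjusted p under 0.05, the smallest being those of Tpi1 (-0.25, adjusted p = 0.754) and Eno1 (-0.16, adjusted p = 0.822). Of 20 enzymes tied to thiamine, biotin, pantothenate or lipoate, 1 was higher, Pcca (0.25, adjusted p = 0.639), and Lipt1 followed (7.08 against 3.5 reads, adjusted p = 0.816). Of 7 regulators of glucose uptake, Arrdc4 was the 1 higher (0.54, adjusted p = 0.697) and Pfkfb3 the 1 lower (-0.43, adjusted p = 0.640), and of 8 Slc22 carriers Slc22a8 was the 1 lower, with Slc22a15 next (0.40, adjusted p = 0.769). In the shared 24-h rhythm, Slc2a1 was the only gene of the 7 lists past the adjusted threshold.

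In the ZT6 and ZT18 libraries the lists divided, where 7.75% of all genes were called higher and 11.6% lower. Those called higher included Slc50a1 (0.39), Bsg (0.43), Slc19a2 (1.29), Slc52a3, Slc22a15 (0.82), Ldha (0.27), Epas1 (0.35) and Txnip, beside the 5 members. The call of Slc19a2 (adjusted p = 0.0499, 41.3 against 21.8 reads on average) held in 10 of 34 alternatives, that of Ldha in 21 of 35 and that of Slc50a1 in 27 of 35, and each was lost when certain single mice were left out. Called lower were the fructose carrier Slc2a5 (-4.52) and Slc2a12, the monocarboxylate carriers Slc16a6 (-3.17), Slc16a7 and Slc16a10 with the ancillary protein Emb, the folate carriers Slc46a1 (0.50 against 28.8 reads on average) and Folr1, the enzymes Ppcdc (-1.17) and Tkt (-0.40), Slc22a17 (-1.47), the regulators Mlxipl (-4.99), Mlxip and Pfkfb3, and 9 of 17 glycolytic genes, led by hexokinase Hk2 (-3.89) and including Hk3, Pfkm, Aldoa, Aldoc, Gapdh, Pgk1, Eno1 and Ldhb. Slc2a5 and Hk2 had 9.63 and 27.8 reads on average in the 8 libraries and 170 and 426 in the other 16, in which the microglial markers were also high. The median differences of most other marker lists were also below 0 in the 8 libraries. They were -1.56 for astrocytes, -2.05 for oligodendrocytes, -2.40 for neurons, -1.79 for choroid plexus and -0.58 for red blood cells. That of fibroblast markers was 0.11, with 0 genes called. Aldoc is also among the 6 astrocyte markers used here. With markers of 6 other cell types as covariates none of these calls remained, beside 0% of all genes. Microglial and astrocyte marker sums did not overlap between the 8 libraries and the other 16, so this fit can hardly separate them from the series. The value of Hk2 was weaker in 1 of 34 alternatives, and its smallest size over the alternatives was -0.067. The part of other cell types in these values was not tested.

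For each carrier, the genes whose log2 CPM followed it most closely over the 24 libraries were listed, among 9890 genes with a mean of 50 or more reads. They were Shroom1 (Pearson's r = 0.928), Rgs12 and Mcf2l for Slc2a1, and Ly6c1 (r = 0.877), Lsr and Tinagl1 for Slc19a3. Slc22a8 was followed by Cpt1a (r = 0.847), Bub3 and Myo10, and Slc16a1 by H1f0 (r = 0.830), Cyb5b and Slc40a1. Values were lower for Slc16a4, with Slc39a8 (r = 0.765), Ifi47 and Slc35f2, and for Slc5a6, with Fads3 (r = 0.731), Psmd3 and Sdf2. Among the members themselves the highest value was r = 0.601 between Slc16a1 and Slc22a8, and Slc2a1 and Slc16a1 had r = -0.26. With the means of the 12 groups of genotype and time point taken out, these values were 0.152 and 0.145, and the highest were 0.713 between Slc2a1 and Slc22a8 and 0.685 between Slc16a1 and Slc5a6. These correlations are descriptions, since the libraries share time points and the series of ZT6 and ZT18.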

How the data were processed

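RNA from CD31-sorted brain endothelial cells of 24 mice was sequenced as stranded total RNA; male and female mice were used. The authors aligned reads to GRCm38 with STAR 2.5.3a, merged files with SAMtools 1.3.1, and normalized and counted reads with PORT; the deposited values are whole-number counts per gene, with totals of 6136404 to 6648311. Since PORT resamples reads, the original depth is not in the values, and counting errors given here cover the normalized reads alone. P-values measure the spread between mice.

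Genes with 5 or more reads in 6 or more libraries of a genotype were kept. edgeR 4.0.16 in R 4.3.3 (TMM scaling, quasi-likelihood test, Benjamini-Hochberg adjustment over 15493 genes, threshold 0.05) tested level (time point as a factor), the 24-h cosine and sine over both genotypes, their interaction with genotype, each time point, and the ZT6 and ZT18 libraries. The meta2d method was rewritten in R and called at q under 0.6 within each genotype. The interaction of genotype with 6 time points and the endothelial marker covariate were added after seeing the data. DESeq2 1.42.0, other scalings and filters, covariates, a replicate block and leaving out each mouse were alternatives. Replicate numbers did not pair mice (correlations of same-numbered deviations from -0.0057 to 0.022). Amplitudes are from least squares on log2(reads + 1). Exon lengths are from GENCODE on GRCm38. The test scripts were tested on simulated data. Plots used Python 3.11.15 and matplotlib 3.10.9.

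The members and lists were chosen with earlier results of these data known. Named were all members, list genes past any threshold over all genes, the 2 smallest level p-values per list, and the 3 genes most like each member. A list gene that the rule names is not reported here.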

Additional observations from a re-analysis of the deposited data

Results flagged for a closer look

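The test of a difference in 24-h rhythm between controls and mutants gave Slc5a6 the smallest p of the members, which did not pass the threshold over all genes (edgeR, p = 0.000809, adjusted p = 1.00, n = 12 per genotype), with peaks at ZT23.5 and ZT11.3. The interaction of genotype and time point, added after the values were seen, did not pass that threshold for Slc5a6 (edgeR, p = 0.00974, adjusted p = 0.781, n = 24), and its exon overlap with Atraid stands beside both. Nor did it for Slc16a1 (edgeR, p = 0.00061, adjusted p = 0.497, n = 24), whose genotype differences ran from -0.92 at ZT18 to 0.39 at ZT10 on the log2 scale. Without the second control of ZT18, which had 4458 reads, the adjusted p of the interaction was 0.718, and without the ZT6 and ZT18 libraries 0.912. It passed the threshold without a filter (adjusted p = 0.00363) and with DESeq2 (adjusted p = 0.00773), where 183 and 79 of all genes passed, against 2. Each mouse was left out in turn, but groups of 2 mice per time point do not show which mouse of a differing pair stands apart.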

How the results depend on the processing

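Counts of members called. For level and for the difference in rhythm, 0 of 6 members were called in the fit reported and in all 35 alternatives. The shared rhythm, 1 of 6 as reported, gave 0 without TMM scaling, 2 without a filter and 2 without the ZT6 and ZT18 libraries (Slc2a1 and Slc16a1), and 0 to 1 when single mice were left out. The edgeR cosinor at q under 0.6 called 1 member in controls, 2 in controls without the ZT6 and ZT18 libraries and 1 in mutants without them, where meta2d called 0. At single time points and for the interaction, 1 member (Slc16a1) was called without a filter and 1 with DESeq2, against 0. In the ZT6 and ZT18 comparison, 5 of 6 became 0 with either set of marker covariates, which the fit can hardly separate from the series. The number called was 3 within controls, 2 within mutants, and 3 to 5 when single mice were left out. The lowest of the last, 3, came without the second control of ZT6. The causes were not tested, and comparisons within a genotype rest on fewer libraries. The replicate number as a block gave 0 members for level, 1 for the shared rhythm and 5 for ZT6 and ZT18, removed the cosinor call of Slc2a1 in controls (q from 0.513 to 0.659), changed no other call of a member, and moved the all-gene count for level from 42 to 45.

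Reversed values, in log2. For level, none called: Slc2a1 0.043 with 6 marker covariates, 0.12 with the i5 index and -0.068 to 0.026 with single mice left out, against -0.03; Slc16a1 0.0019 and Slc16a4 0.13 without the ZT6 and ZT18 libraries; Slc16a4 0.0023 in the permutation test and -0.084 to 0.061 with single mice left out; and Slc5a6 -0.024 with the endothelial covariate. For ZT6 and ZT18 with 6 marker covariates, all with adjusted p = 1: Slc19a3 -0.26, Slc22a8 -0.17, Slc2a5 0.35, Slc16a6 2.75, Epas1 -0.86, Mlxipl 0.47, Slc22a17 0.49, Tkt 0.44, Ppcdc 1.01 and Slc46a1 3.40. With the endothelial covariate Epas1 was -0.14, Slc22a17 0.73 and Tkt 0.48, and Slc5a6 within controls was 0.023. For ZT6 and ZT18, fits with marker covariates can hardly separate these from the series.

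Counts over all genes that moved by more than 1.5 times, other than by leaving out single mice. Level, 42: 141 without a filter, 99 with DESeq2, 12 with 6 marker covariates and 7 with the i5 index. Shared rhythm, 78: 231 without a filter, 125 with DESeq2 and 125 with the endothelial covariate. Rhythm difference, 0: 52 without a filter, 1 with DESeq2, 7 with 6 marker covariates, 1 with the endothelial covariate, 5 without ZT6 and ZT18 and 1 with the i5 index. Single time points, 48: 334 without a filter and 239 with DESeq2. Interaction, 2: 183 without a filter, 79 with DESeq2, 1 with 10 or more reads in every library and 5 without ZT6 and ZT18. ZT6 and ZT18, 3001: 1944 with 10 or more reads in every library, 0 and 152 with the marker covariates, 1511 within controls and 1651 within mutants. Rhythm in controls by meta2d, 48: 19 without a filter, 0 with ties kept, and 133, 103 (block) and 316 (without ZT6 and ZT18) by cosinor. Rhythm in mutants, 6: 24 TMM-scaled, 1 without a filter, 43 with 10 or more reads, 56 by JTK_CYCLE alone, 0 with ties kept, and 30, 23 and 301 by cosinor. With single mice left out, the counts ran from 25 to 68 for level, 52 to 90 for the shared rhythm, 0 to 1 for its difference, 0 to 9 for the interaction, 0 to 82 in controls and 0 to 24 in mutants.

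Limits. With 2 mice per genotype and time point, single time points rest on few mice, and the ZT6 and ZT18 libraries cannot be told apart from their series. Genotype cannot be told apart from the i5 index at ZT2 and ZT10, nor from the difference in library numbers at ZT14. Slc5a6, the least sampled member, had a counting error of 8.64% of its mean.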
